A study of Mus musculus with 8 samples.

Results

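The genes described here are 10 members of the pathway that links AMPK, mTOR and autophagy: Ulk1, Mtor, Rptor, Tsc2, Map1lc3a, Map1lc3b, Gabarapl1, Sqstm1, Bnip3 and Foxo3. They were taken by gene symbol from the deposited expression table, which holds 37 of their alternative polyadenylation sites (APSs) among 56483 APSs and 10 of 15349 gene symbols. All 10 symbols were found. Gastrocnemius muscle of adult male mice was profiled by WTTS-seq (whole transcriptome termini site sequencing), in which each read is taken to mark the 3′ end of a polyadenylated RNA. The AMPKα1 model had 2 AMPKα1 -/- mice (KO) and 2 wild-type controls (WT), the AMPKα2 model had 2 AMPKα2 -/- KO and 2 WT mice, and each mouse gave 1 library, so there were 8 libraries. The sources used here name no driver that would restrict the deletions to muscle. Per the study's methods the AMPKα1 KO mice came from strain 129S2/SvPas at about 6 weeks of age and the AMPKα2 KO mice from C57BL/6 at about 8 weeks, whereas the labels give a C57BL/6 background for every mouse. No age was stated for the WT mice. Differences in level between the models therefore cannot be told apart from age and strain. Nor can they be told apart from any difference in library preparation. The study describes a single protocol and does not say whether the libraries of both models were prepared together. KO was compared with WT within a model only.

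AMPK is a kinase that responds to a falling energy charge, and its catalytic α subunit exists as α1 (gene Prkaa1) or α2 (gene Prkaa2). Active AMPK phosphorylates TSC2 and Raptor, which lowers the activity of the mTORC1 kinase complex, and it phosphorylates ULK1, the kinase that starts the formation of autophagosomes and that mTORC1 holds back when nutrients are plentiful. LC3 and GABARAP proteins are then coupled to lipid on the growing membrane, where p62 (Sqstm1) and BNIP3 bring in ubiquitin-tagged cargo and mitochondria. In muscle the transcription factor FOXO3 switches on many of these genes during fasting and atrophy. Most of these steps act on proteins, and the libraries measured only RNA 3′ ends.

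The 37 APSs were unevenly spread over the genes. Ulk1, Tsc2, Map1lc3a and Gabarapl1 had 1 APS each, Mtor had 2, Map1lc3b 3, Foxo3 4, Rptor and Bnip3 6 each and Sqstm1 12. By GENCODE release M21 on GRCm38, 14 APSs lay in a 3′ UTR, 9 in an intron, 6 in a coding exon, 6 up to 2000 bases past the annotated end of the gene, 1 in an exon of a non-coding transcript and 1 on the opposite strand of an intron. The 30 bases that end at an APS follow here for the leading 3′ UTR sites, because the hexamers AATAAA and ATTAAA, which direct cleavage, usually stand there. They are written 5′ to 3′ on the strand of the transcript, with each copy of either hexamer in capitals.
Ulk1, chr5:110784488-110784517, minus strand, last exon: agtttaagaaAATAAAaattggaattattt
Rptor, chr11:119899381-119899410, plus strand, last exon: gagtgttAATAAAgAATAAAgccgtgagat
Map1lc3b, chr8:121598021-121598050, plus strand, last exon: gcactAATAAAggcacaacgaacctgtcct
Gabarapl1, chr6:129542306-129542335, plus strand, last exon: taaaataattgcttaccttaaaagtctacc
Foxo3, chr10:42181845-42181874, minus strand, last exon: gcatgtaAATAAAgctttggtgacactcta
Bnip3, chr7:138890967-138890996, minus strand, last exon: gtgtgctaaAATAAAagtgacattttaaca
Tsc2, chr17:24596488-24596517, minus strand, last exon: tctggcccgtggagttcagagagcagcaca
Of 14 windows in a 3′ UTR of these genes, 9 held a hexamer, which is 64.3%, against 56.6% of the 13469 windows read in the same way at 3′ UTR sites of all genes. Gabarapl1 and Tsc2 had neither hexamer in these 30 bases. The Tsc2 APS lies 1 base from an APS of Pkd1 on the opposite strand, so the genes converge there and are separated only by the strand of the reads. The 3′ part of Map1lc3b is overlapped on its own strand by the annotated gene Gm20388, and reads of the pair cannot be told apart.

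The libraries held 2311242 to 3549156 reads. Reads at APSs without a gene made up 1.88 to 2.85% of AMPKα1 and 15.3 to 17.9% of AMPKα2 libraries. Levels are given as CPM (reads at all APSs of a gene, scaled to the total of the library over APSs with a gene and by TMM within the model). Since a read is taken to mark an end, CPM is not divided by transcript length. A count of 3 reads, taken as the smallest that this depth shows, corresponds to 0.828 to 1.91 CPM. This floor and all intervals below cover counting error only, with reads taken as independent draws. Whether reads within a library were independent was not tested. The targeted genes did not check the labels. The study describes deletions of part of the catalytic domain, and the place of the read ends relative to them was not examined. In the AMPKα1 model, Prkaa1 was counted 0 and 82 times in the KO and 15 and 0 times in the WT mice. In the AMPKα2 model, Prkaa2 was counted 40 and 71 against 87 and 62 times. The biological coefficient of variation over genes was 103.5% in AMPKα1 and 26.2% in AMPKα2. In AMPKα1 KO, 51.3% of all APSs with at least 20 reads in 1 library had 0 in the other, in AMPKα1 WT 25.4%, and in AMPKα2 KO and WT 0.728% and 0.610%. Fast fibre markers (5 of 5 in the table, Acta1, Ckm, Myh4, Tnnt3 and Pvalb) were the highest of the marker lists in all libraries. Their summed level was 60557 to 69808 CPM in AMPKα1 KO and 85863 to 122258 in WT, and 51842 to 64786 in AMPKα2 KO against 45565 to 49704 in WT. Slow fibre markers (4 of 4) summed to 1952 to 4079 CPM in AMPKα1 KO against 1247 to 1443 in WT, and to 1828 to 1852 in AMPKα2 KO against 494 to 1066 in WT. Fibroblast markers (4 of 4) were also lower in AMPKα1 KO, at 9077 to 9467 CPM against 9763 to 13924, as were smooth muscle markers (3 of 3), at 85.6 to 103.2 against 113.6 to 175.9. Macrophage markers (4 of 4) summed to 80.2 and 271.6 CPM in AMPKα1 KO and to 135.4 and 85.5 in WT, which overlap, although 1 of them, Cd68, had no read in KO. In AMPKα2, endothelial markers (3 of 3) were lower in KO, at 25.2 and 33.2 CPM against 34.2 and 34.9. None of the 8 marker lists had a called gene, and the part of cell type and fibre type in the results for the members was not tested. In bulk muscle, fewer cells of a type and less RNA per cell cannot be told apart.

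None of the 10 genes passed the test of KO against WT in either model (edgeR's quasi-likelihood test, Benjamini-Hochberg adjusted p under 0.1). In AMPKα1, 0 of 13924 genes tested were called (0.0%), while 589 had an unadjusted p under 0.05 and DESeq2 called 115, no member among them. In AMPKα2, 51 of 10536 genes were called (0.484%), 27 higher and 24 lower in KO, again without a member. The balance of these calls was not stable: DESeq2 called 54 higher and 20 lower, edgeR without KO 2 called 59 and 11, and edgeR without WT 1 called 5 and 28. Of the 10 members 7 had a log2 fold change below 0 in AMPKα1, beside 51.1% of all genes tested. Their median was -0.65 against -0.03 over all genes tested. In AMPKα2, 5 of the 9 tested were below 0, beside 50.4% of all genes, with a median of -0.01 against -0.0044 over all genes. That median rested on single mice, since it was -0.42 without KO 2, -0.20 without WT 2 and 0.13 without WT 1, and in AMPKα1 it ran from -0.82 without KO 1 to -0.37 without WT 1. In both KO libraries of AMPKα1, 5 members (Ulk1, Rptor, Map1lc3a, Map1lc3b and Foxo3) had a lower CPM than in either WT library, as did 18.9% of all genes tested, and 0 were higher in both, as were 13.6%. In AMPKα2, Rptor and Map1lc3a were below both WT libraries, beside 20.6% of all genes, and Sqstm1 and Bnip3 were above both, beside 18.6%. In the fit to all 8 libraries, the effect of KO was called as differing between the models in 9 of 15349 genes (0.0586%), none of them a member. That fit takes 1 spread per gene for both models, although the biological coefficient of variation was 103.5% in AMPKα1 and 26.2% in AMPKα2. Its calls and standard errors, here and below, hold only under that assumption.

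**Figure D1:**
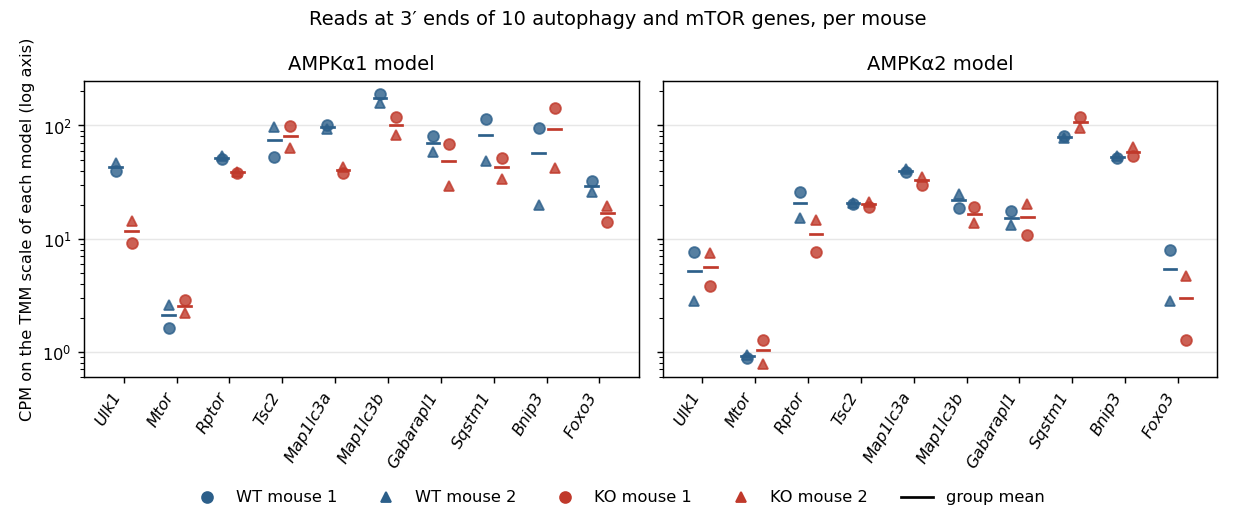
CPM of the 10 genes (log axis, TMM scale of each model) in every mouse, with WT in blue, KO in red and bars at the group means of 2 mice. In AMPKα1 the KO points of Ulk1 and Map1lc3a lie well below the WT points, and in AMPKα2 KO and WT lie close together for most genes.

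Ulk1, the kinase that starts autophagy, stood at 9.10 and 14.4 CPM in AMPKα1 KO and at 39.3 and 46.4 in AMPKα1 WT. The groups did not overlap. The log2 fold change was -1.87 ± 0.75 (SE, n = 2 against 2), the most negative of the members, with an unadjusted p of 0.045 and an edgeR adjusted p of 0.763. In AMPKα2, Ulk1 had only 6 to 26 reads per library, or 3.83 and 7.47 CPM in KO and 7.60 and 2.83 in WT. These groups overlapped, with a log2 fold change of 0.10 ± 0.58 (edgeR adjusted p = 0.977). The difference between the effects in the models, AMPKα2 minus AMPKα1, was 1.97 ± 1.01 on the log2 scale (edgeR adjusted p = 0.761).

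Mtor encodes the catalytic subunit of mTORC1 and mTORC2 and was the least measured member. It had 10, 8, 3 and 9 reads in AMPKα1 KO and WT, or 2.84 and 2.21 CPM in KO and 1.64 and 2.61 in WT. With 9 reads over the AMPKα2 libraries it stayed below the minimum of 16 reads, so it was not tested there. A difference in Mtor was therefore not detectable at this depth: in AMPKα1 the log2 fold change was 0.24 ± 2.51 (SE).

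Rptor encodes Raptor, the subunit that brings substrates to mTORC1. Its CPM was 37.8 and 39.2 in AMPKα1 KO and 50.8 and 53.3 in WT, and 7.65 and 14.6 in AMPKα2 KO against 26.0 and 15.1 in WT. KO lay below WT without overlap in both models when all APSs were summed. The log2 fold changes were -0.43 ± 0.55 (SE) in AMPKα1 and -0.86 ± 0.41 in AMPKα2, where the edgeR adjusted p of 0.612 (unadjusted 0.059) was the lowest of any member in that model. Without KO 2 the AMPKα2 value was -1.45, and without WT 1 it was -0.41.

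These Rptor sums are not all messenger ends. The APS with the most Rptor reads lies in an intron on the opposite strand (chr11, position 119654378), and it held 33.8 and 41.5% of Rptor reads in AMPKα1 KO, 41.9 and 19.6% in WT, 66.7 and 45.9% in AMPKα2 KO and 58.4 and 75.0% in WT. With own-strand APSs alone the log2 fold changes were -0.59 ± 0.71 and -0.44 ± 0.60. In AMPKα2 the own-strand reads numbered 4 and 20 in KO and 37 and 8 in WT, so that the groups overlapped once the opposite-strand site was left out. Of own-strand reads, the 3′ UTR site took 6.82 and 24.1% in AMPKα1 KO (6 of 88 and 20 of 83 reads) and 72.2 and 59.5% in WT (39 of 54 and 88 of 148). The groups did not overlap here, but how often site shares of other genes separate in this way was not counted. The remaining reads fell at 4 intronic APSs, each of them read in only 1 KO mouse. In KO 1 and KO 2 these APSs held 79 and 0, 3 and 0, 0 and 50, and 0 and 13 reads. The test of site usage did not call Rptor (edgeR adjusted p = 1.00), beside 2 of 7644 genes called in AMPKα1 (0.0262%) and 7 of 3843 in AMPKα2 (0.182%).

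Tsc2 encodes tuberin, which with hamartin switches off the mTORC1 activator Rheb. It stood at 98.7 and 63.5 CPM in AMPKα1 KO against 52.4 and 97.7 in WT. The groups overlapped, and the log2 fold change was 0.11 ± 0.55 (SE). In AMPKα2 the levels were 19.1 and 21.2 CPM in KO and 20.2 and 20.8 in WT. The log2 fold change was -0.01 ± 0.30 (SE), the smallest of the 9 tested.

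**Figure D2:**
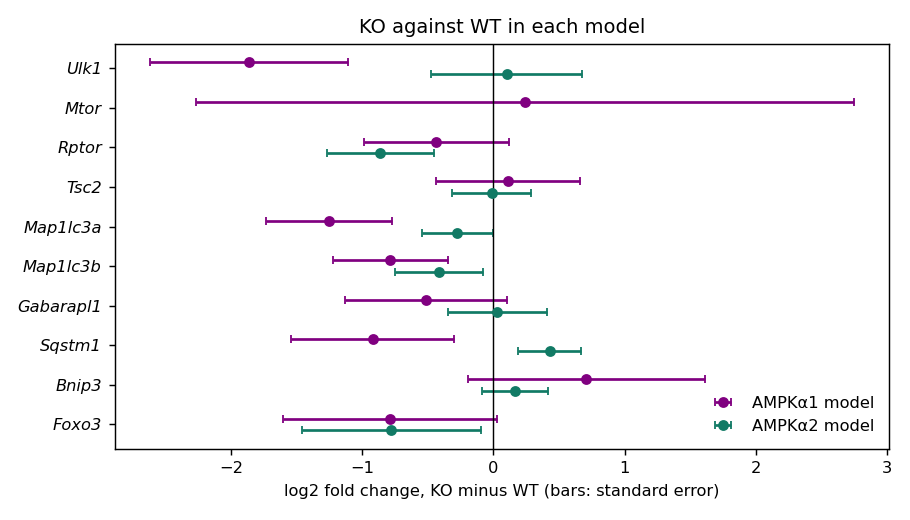
Log2 fold change of KO against WT for each gene in AMPKα1 (purple) and AMPKα2 (green), with bars of 1 standard error. Mtor has no AMPKα2 value, and the bars of the AMPKα1 model are the wider ones for each gene tested in both.

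Map1lc3a encodes LC3A, which is coupled to lipid on the autophagosome. It had 38.1 and 43.3 CPM in AMPKα1 KO and 100.5 and 93.9 in WT. The mice within a group were close and the groups did not overlap, with a log2 fold change of -1.25 ± 0.48 (SE), an unadjusted p of 0.038 and an edgeR adjusted p of 0.763. In AMPKα2 it stood at 29.98 and 35.4 CPM in KO and 38.6 and 41.1 in WT, also apart, with -0.28 ± 0.27 (edgeR adjusted p = 0.832). The effects differed by 0.96 ± 0.50 between the models (edgeR adjusted p = 0.764). Its APS lies 2 bases past the annotated end of the gene (chr2, position 155278075).

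Map1lc3b encodes LC3B, the form most used to follow autophagosomes. It had 118.9 and 82.3 CPM in AMPKα1 KO against 187.8 and 159.1 in WT, without overlap, and a log2 fold change of -0.79 ± 0.44 (SE, edgeR adjusted p = 0.763). In AMPKα2 it had 19.1 and 13.8 CPM in KO against 18.7 and 25.02 in WT, with -0.42 ± 0.33 (SE). Its last-exon site shown above took 72.1 to 98.0% of its reads across the 8 libraries.

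The order of LC3A and LC3B was opposite in the models. The share of Map1lc3a in the reads of both LC3 genes was 24.3 and 34.5% in AMPKα1 KO and 34.8 and 37.1% in WT, but 61.0 and 72.0% in AMPKα2 KO and 67.3 and 62.1% in WT. The lowest 95% Wilson bound in AMPKα2 was 49.9% and the highest in AMPKα1 was 40.4%. These bounds take reads as independent draws and leave out variation between mice, so they are too narrow wherever reads are not independent. In AMPKα1 both KO shares lay below both WT shares (34.5 against 34.8% for the nearest pair), and in AMPKα2 the groups overlapped. The share was not tested between models, since age, strain and any difference in library preparation cannot be told apart from it.

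Gabarapl1, a relative of LC3 that acts later in the closing autophagosome, stood at 68.3 and 29.3 CPM in AMPKα1 KO and 81.4 and 58.0 in WT. In AMPKα2 it had 10.8 and 20.1 CPM in KO and 17.5 and 13.2 in WT. The groups overlapped in both models, with log2 fold changes of -0.51 ± 0.62 and 0.03 ± 0.38 (SE). The AMPKα1 value was -1.25 without KO 1 and -0.0323 without KO 2.

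Sqstm1 encodes p62, the receptor that ties ubiquitin-tagged cargo to LC3 and is itself consumed by autophagy. Its CPM was 52.1 and 34.0 in AMPKα1 KO and 114.7 and 48.7 in WT, which overlap, with a log2 fold change of -0.92 ± 0.62 (SE, edgeR adjusted p = 0.763). In AMPKα2 it was the highest member in both groups, with 118.6 and 95.6 CPM in KO above 81.0 and 77.9 in WT. There the log2 fold change was 0.43 ± 0.24 (SE, edgeR adjusted p = 0.669). The effects of KO pointed in opposite directions and differed by 1.32 ± 0.63 on the log2 scale (unadjusted p = 0.065, edgeR adjusted p = 0.736), so a difference between the models was not established. The AMPKα1 value was -0.18 without WT 1 and -1.38 without WT 2, and the difference between the models was then 0.51 and 1.82.

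Sqstm1 reads ended at different places in the 2 models. The gene has 4 APSs in its 3′ UTR and 8 upstream of it, 6 of these in coding exons. The following windows give both kinds of site, with the hexamers again in capitals and none found in the coding exon.
Sqstm1 main 3′ UTR site, chr11:50200153-50200182, minus strand, exon 8: ctgtAATAAAatggcatatgcactttaacc
Sqstm1 second 3′ UTR site, chr11:50200426-50200455, minus strand, exon 8: gtgtttcctttATTAAAagtgattagtaca
Sqstm1 coding site, chr11:50202849-50202878, minus strand, exon 6: gccctgctcagtctctgacagagcaaatga
The APSs upstream of the 3′ UTR took 0 of 183 and 0 of 123 reads in AMPKα1 KO (0%, with upper 95% Wilson bounds of 2.06 and 3.03%), and 4.76 and 0% in AMPKα1 WT. In AMPKα2 they took 61.8 and 50.6% in KO and 49.8 and 48.5% in WT. All 4 AMPKα2 libraries were thus far above all 4 AMPKα1 libraries. In AMPKα2 both KO shares were above both WT shares (50.6 against 49.8% for the nearest pair). Only 1 of the 8 upstream APSs had a read in an AMPKα1 library. The others met the study's cutoff of 16 reads per APS through AMPKα2 alone. AMPKα1 reads at unlisted sites were not counted, so these shares and bounds hold for the listed APSs only. None of the 6 coding exon windows of Sqstm1 held AATAAA or ATTAAA, as in most coding exon windows of the table, where 2.76% of 4386 did. The study calls an APS A-rich if the 30 bases after it hold 7 consecutive As or 8 As within 10 bases. By that definition the second 3′ UTR site was A-rich, and the main and coding sites shown were not. Of the 30 bases, 12 were As at the second site, 7 at the main and 9 at the coding site. Whether reads at these sites mark true RNA ends was not tested.

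**Figure D3:**
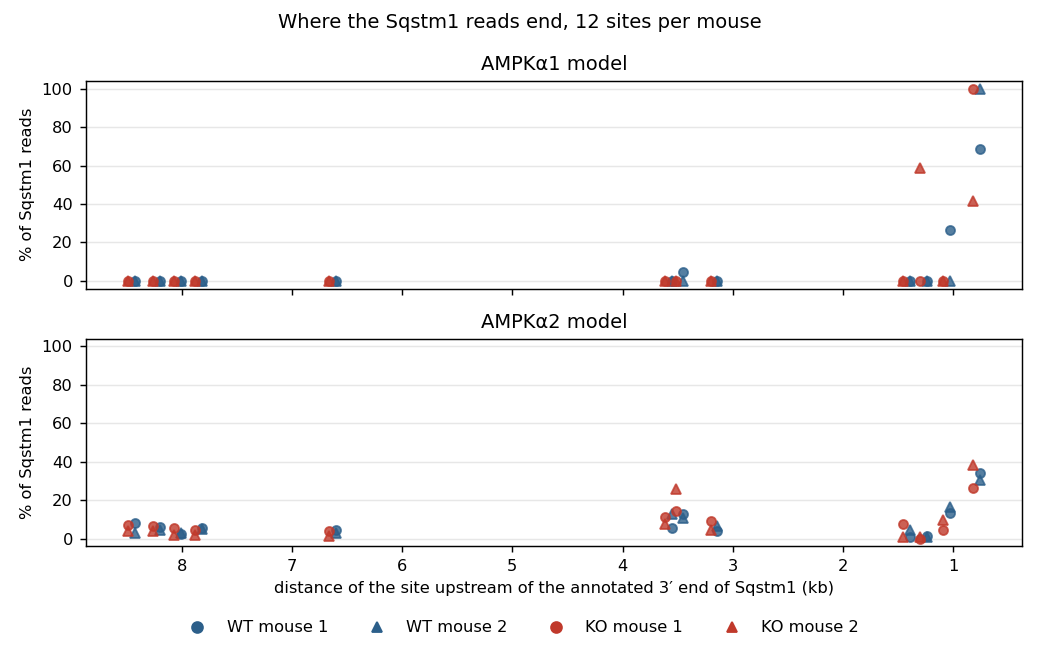
Share of a library's Sqstm1 reads at each of the 12 APSs, placed by distance upstream of the annotated 3′ end (kb, KO points set slightly left of WT points at the same site). Among the listed APSs, nearly all AMPKα1 reads fell within the 3′ UTR at the right, and AMPKα2 reads were spread over all parts of the gene. Of these APSs, 8 had no read in AMPKα1 and are listed through AMPKα2 alone, so the contrast holds for listed APSs only.

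A lower share of reads at the most used APS in AMPKα2 was not limited to Sqstm1. This share does not show where in a gene the other reads fell. Over 3292 genes with at least 2 APSs and 100 reads in each model, the most used APS held a median of 69.0% of reads in AMPKα1 and 61.4% in AMPKα2, with a median difference of -6.71 percentage points. For Sqstm1 the share pooled over libraries was 79.8% in AMPKα1 and 33.0% in AMPKα2, a difference of -46.9 points. Of these genes, 232 (7.05%) had a difference as low or lower. By library the Sqstm1 share varied widely in AMPKα1, at 100 and 41.5% in KO and 68.6 and 100% in WT. In AMPKα2 it was 26.3 and 38.3% in KO and 34.3 and 30.3% in WT. The pooled difference also rests on 8 Sqstm1 APSs without a read in AMPKα1, which are listed through AMPKα2 alone. APSs with at least 16 reads in AMPKα2 and 0 in AMPKα1 made up 9 of the 37 member sites (24.3%), 8 of them in Sqstm1 and 1 in Bnip3, against 12.6% of all APSs. The reverse was seen at 1 member site, the Mtor site at the gene's end, and at 11.4% of all APSs.

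Between KO and WT no member APS was called. In AMPKα1, 26 member APSs were tested beside 2 calls among 44024 APSs (0.00454%), and in AMPKα2, 24 beside 13 calls among 23218 (0.056%). Unadjusted p values under 0.05 were found at 2 member APSs in each model. In AMPKα1 these were the Map1lc3a site and the second Sqstm1 site shown above, which had no read in KO and 56 and 0 in WT, so that 1 mouse carried all of its AMPKα1 reads. In the same way, a Sqstm1 APS at position 50200633 had 0 and 72 reads in KO and 0 in both WT libraries. In AMPKα2 the APSs were the opposite-strand site of Rptor, with a log2 fold change of -1.28 ± 0.47 (SE, edgeR adjusted p = 0.629), and the coding site of Sqstm1, with 1.01 ± 0.43 (edgeR adjusted p = 0.653). In AMPKα2 KO this coding site was read 27 and 63 times, against 36 and 18 times in WT. Member APSs with at least 20 reads in 1 mouse and 0 in the other of its group were 6 of 19 in AMPKα1 KO and 3 of 17 in WT, and 0 of 10 and 0 of 14 in AMPKα2 KO and WT.

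Bnip3 encodes a receptor of the outer mitochondrial membrane that delivers mitochondria to autophagosomes. It varied most between mice of a group in AMPKα1, with 143.6 and 42.2 CPM in KO against 94.5 and 19.99 in WT. The groups overlapped, with a log2 fold change of 0.71 ± 0.90 (SE, edgeR adjusted p = 0.985), which became -0.43 without KO 1. In AMPKα2 it stood at 53.6 and 64.1 CPM in KO and at 51.7 and 53.4 in WT, and the log2 fold change was 0.17 ± 0.25 (SE).

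Most Bnip3 reads lay past the end of the annotated gene. The most used APS was 1873 bases beyond it (chr7, position 138888963). The 3 APSs past the end took 90.1 and 73.2% of reads in AMPKα1 KO and 60.7 and 71.0% in WT, but 70.2 and 60.1% in AMPKα2 KO and 81.9 and 79.6% in WT. The share was thus higher in both AMPKα1 KO mice than in WT and lower in both AMPKα2 KO mice than in WT. The nearest AMPKα1 pair was 73.2% (95% Wilson interval 65.7 to 79.6) in KO against 71.0% (59.4 to 80.4) in WT. How often the shares of other genes separate in this way was not counted. The site usage test did not call Bnip3 in either model (edgeR adjusted p = 0.978 and 1.00).

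**Figure D4:**
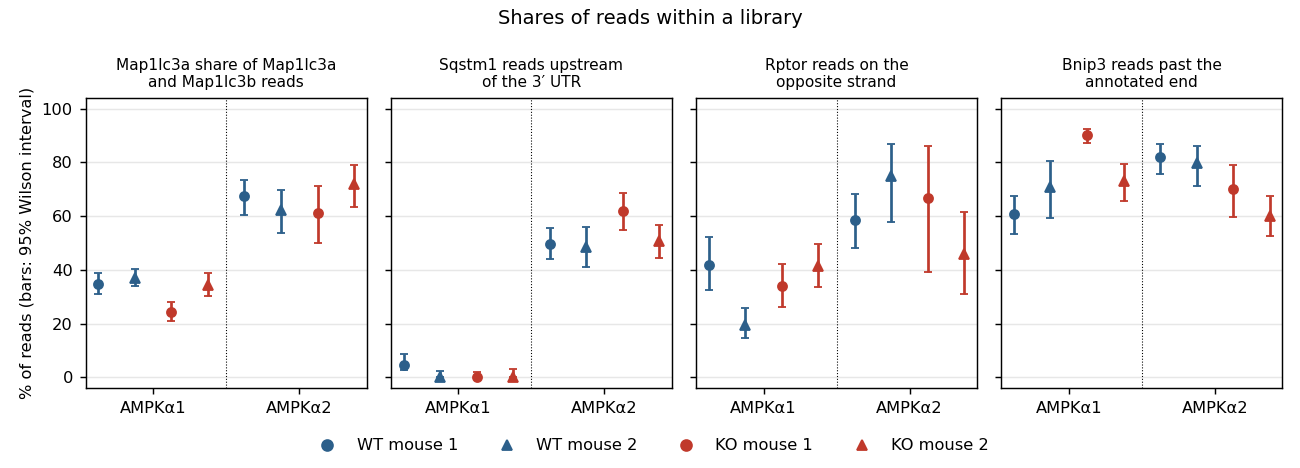
Shares of reads within each library with 95% Wilson intervals: Map1lc3a among both LC3 genes, Sqstm1 upstream of its 3′ UTR, Rptor on the opposite strand and Bnip3 past its annotated end. The first 2 panels separate the models (left and right of the dotted line), with 24.3 to 37.1% against 61.0 to 72.0% in the first, by more than they separate KO from WT within a model. The second panel covers listed APSs only, and most of the upstream Sqstm1 APSs are listed through AMPKα2 alone.

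Foxo3 encodes a transcription factor that raises LC3, Bnip3 and atrophy genes in fasting muscle. It had 13.9 and 19.6 CPM in AMPKα1 KO against 32.2 and 25.8 in WT, apart but with a log2 fold change of only -0.79 ± 0.81 (SE, edgeR adjusted p = 0.937). In AMPKα2 it was read only 2 and 12 times in KO and 27 and 6 times in WT, which is 1.28 and 4.72 CPM against 7.89 and 2.83. With so few reads the groups overlapped and the log2 fold change was -0.78 ± 0.68 (SE), or 0.18 without WT 1. The last-exon site shown above took 100% and 28.2% of Foxo3 reads in AMPKα1 KO and 78.0% and 16.9% in WT, so its use differed more between mice than between genotypes.

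By level, the members fell in different orders in the 2 models. In AMPKα1 WT the order of mean CPM was Map1lc3b, Map1lc3a, Sqstm1, Tsc2, Gabarapl1, Bnip3, Rptor, Ulk1, Foxo3 and Mtor, with 173.5 ± 20.3 (SD, n = 2) at the top and 2.12 ± 0.69 at the bottom. Neighbours from Map1lc3a down to Rptor overlapped between mice, and Rptor, Ulk1, Foxo3 and Mtor were each apart. In AMPKα1 KO, Map1lc3b led again with 100.6 ± 25.9 but overlapped with Bnip3, and Ulk1 stood behind Foxo3, which it overlapped. In AMPKα2, Sqstm1, Bnip3 and Map1lc3a came first in both KO and WT, each apart from the next, and in WT they were followed by Map1lc3b, Rptor, Tsc2, Gabarapl1, Foxo3, Ulk1 and Mtor. This order uses all APSs of a gene, so the AMPKα2 place of Sqstm1 includes its APSs upstream of the 3′ UTR. Mtor was last in all 4 groups, with 1.03 ± 0.35 CPM in AMPKα2 KO and 0.91 ± 0.05 in WT, near the floor of 3 reads.

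The other genes of the pathways were read from a list of 43 autophagy genes, 41 of them in the table, and a list of 46 mTOR genes, 43 of them in the table. None was called by edgeR in either model, with 41 and 40 autophagy and 43 and 38 mTOR genes tested. Over all genes tested, 0.0% were called in AMPKα1 and 0.484% in AMPKα2, so few or no calls would be found in lists of this size. Median log2 fold changes of the autophagy list were -0.26 in AMPKα1 and -0.07 in AMPKα2, and those of the mTOR list -0.16 and -0.12, against -0.03 and -0.0044 over all genes. KO was below WT without overlap for 9 autophagy and 6 mTOR genes in AMPKα1 and for 7 and 11 in AMPKα2. KO was above WT without overlap for 5 and 5 in AMPKα1 and for 8 and 4 in AMPKα2. The shares of all genes that did so in each direction are given above. Atg4c had no read in AMPKα1 KO, and Ddit4 and Rragb had none in AMPKα1 WT. With these 3 set to their bounds against 3 reads over the group, the medians were still -0.26 and -0.16. Other settings moved them. In AMPKα1 the mTOR median was 0.0993 with library totals (all genes 0.22), 0.0826 with the strongest APS of each gene alone (all genes -0.0114), 0.0360 without WT 1 (all genes 0.0767) and 0.21 without WT 2 (all genes 0.19), and the autophagy median ran from -0.50 with the strongest APS to -0.0638 with library totals. In AMPKα2 the autophagy median was 0.0370 without KO 1 and 0.0104 with 10 reads required in 2 libraries, and the mTOR median stayed negative, from -0.30 to -0.0630.

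Ctsd, cathepsin D, a protease that digests autophagic cargo in the lysosome, had the lowest p of these genes in AMPKα1. It stood at 100.4 and 85.0 CPM in KO, far below the 346.7 and 329.5 of WT, and its log2 fold change was -1.87 ± 0.40 (SE, unadjusted p = 0.0027). Its edgeR adjusted p was 0.763, whereas DESeq2 gave 0.0437. A single edgeR fit to all 8 libraries, with 1 spread per gene for both models, gave 0.0824. The call of Ctsd thus depends on the tool and the fit. Over 13 alternatives its adjusted p ranged from 0.0437 to 0.984 and its log2 fold change was always negative.

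Next by p in AMPKα1 were Ddit4 and Akt2. Ddit4 (REDD1), an inhibitor of mTORC1 induced by stress, was counted 10 and 103 times in KO and never in WT. With the WT group set to 3 reads, the pooled KO reads were 27.9-fold higher, most of it from 1 mouse (edgeR adjusted p = 0.763). This fold is not a lower bound on the effect of KO, since the KO mice differed widely and counts of 0 were common in this model. Akt2, the kinase of the insulin pathway upstream of TSC2, stood at 92.4 and 138.0 CPM in KO against 44.2 and 50.1 in WT, a log2 fold change of 1.29 ± 0.49 (SE, edgeR adjusted p = 0.763). In AMPKα2 the lowest p belonged to Prr5, a subunit of mTORC2, with 1 read in each KO mouse against 10 and 7 in WT (log2 fold change -2.54 ± 0.88, edgeR adjusted p = 0.420). It was followed by Slc38a9, the lysosomal arginine sensor, with 1.28 and 3.54 CPM in KO and 7.31 and 7.08 in WT (edgeR adjusted p = 0.516). Atg5, whose product is joined to ATG12 and helps to lipidate LC3, came next with 7.02 and 11.4 CPM in KO and 15.2 and 22.2 in WT (log2 fold change -0.96 ± 0.39, edgeR adjusted p = 0.545). None of these differences passed the test.

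**Figure D5:**
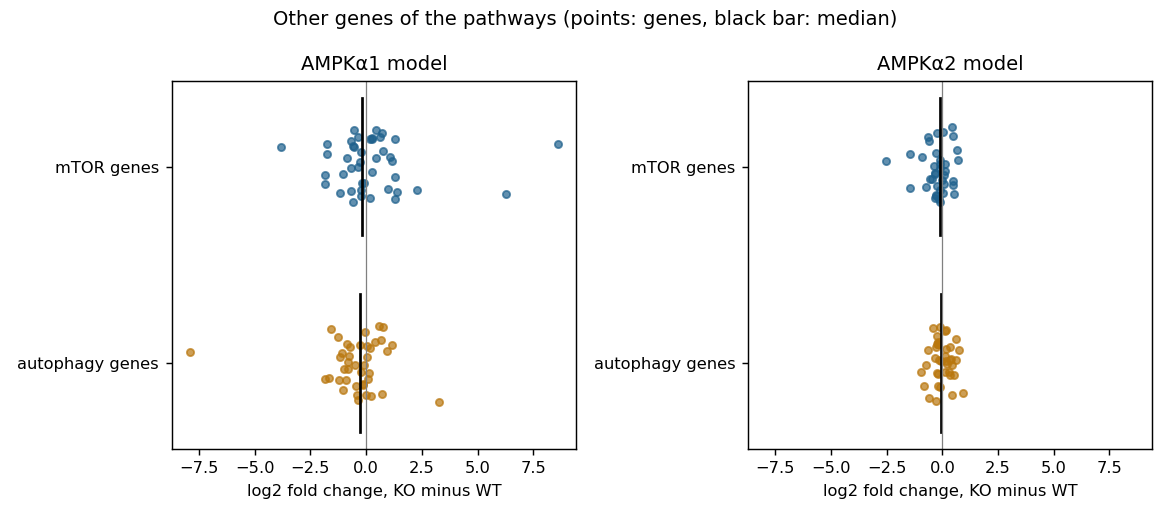
Log2 fold change of KO against WT for the other autophagy and mTOR genes, 1 point per gene tested and a black bar at each median, which is -0.26 and -0.16 in AMPKα1 and -0.07 and -0.12 in AMPKα2. The far points in AMPKα1 include genes at 0 reads in a whole group (Atg4c in KO, Ddit4 and Rragb in WT, the first and last named after their values were seen), whose fitted values depend on the prior count.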

How the data were processed

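WTTS-seq libraries of gastrocnemius muscle from 8 mice were used. The authors filtered reads with the FASTX Toolkit 0.0.13.1, trimmed leading Ts, mapped reads of at least 16 bases with TMAP 3.4.1 (build GRCm38.p5 per the labels), clustered read ends within 24 nucleotides and assigned them to genes with Cuffcompare 2.2.1. The deposited values are raw read counts per APS, without normalization. Here counts were summed by gene symbol, which leaves out APSs without a gene (1.88 to 2.85% of reads in AMPKα1, 15.3 to 17.9% in AMPKα2). The labels gave the groups. The test of KO against WT, separate for the models, was the robust quasi-likelihood test of edgeR 4.0.16 (R 4.3.3 with limma 3.58.1) after TMM, at least 16 reads over the 4 libraries, Benjamini-Hochberg adjusted p under 0.1. A genotype by model interaction over all 8 libraries and diffSpliceDGE for APS usage were fitted likewise. Each edgeR fit to all 8 libraries used 1 spread per gene for both models. Standard errors are the log2 fold change divided by the root of F, an approximation. With 2 against 2 mice, an exact permutation test cannot give a two-sided p below 0.333. Alternatives were DESeq2 1.42.0 (the authors' tool), other scaling and filters, the APSs summed, all libraries in 1 fit, a replicate block and leaving out each library. All tests were first run on simulated counts with known changes. These counts were drawn with the same spread for both models, well below the 103.5% of AMPKα1. They therefore do not show how the tests perform at the spread of that model. Sequences came from GENCODE M21 transcripts (GRCm38), read only where a single exon held the window. Hexamers were searched on the transcript strand. Libraries hold 2311242 to 3549156 counts. Tables were made in Python 3.11.15 with pandas 2.3.3 and scipy 1.17.1.

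The members and the pathway and marker lists were chosen with earlier results of these data known. All members are named. Of the pathway lists, genes that passed the test and the 3 with the lowest p in each model are named, and of member APSs the most used, those that passed and those with the lowest p.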

Additional observations from a re-analysis of the deposited data

How the results depend on the processing

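No member passed the threshold in any of the 7 comparisons under any of 74 alternative fits, and the lowest adjusted p of a member in a gene fit was 0.236 (Map1lc3a, AMPKα1). In 335 of 366 alternative values the direction of a member's log2 fold change was kept. Library totals in place of TMM moved the median over all genes from -0.03 to 0.22 in AMPKα1 and from -0.0044 to -0.19 in AMPKα2, and 70 genes were then called higher and 91 lower in AMPKα2. The causes of the differences listed here were not tested. With 2 mice per group, leaving out a mouse leaves a lone sample, which is assumed to vary like the others.

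By DESeq2, 115 genes in AMPKα1 (27 higher, 88 lower), 1 gene of the autophagy list in AMPKα1 (Ctsd), 218 and 96 APSs in AMPKα1 and AMPKα2 and 172 genes of the interaction were called. With all 8 libraries in 1 fit, these were 83 genes in AMPKα1, again 1 of the autophagy list, 4 genes in AMPKα2 and 432 and 7 APSs. Library totals gave 161 genes in AMPKα2 and 48 and 42 APSs. Without a filter beyond 1 read, 376 genes in AMPKα2 and 4 and 557 APSs were called. Requiring 10 reads in 2 libraries gave 0 APSs and 1 gene with changed site usage in AMPKα1.

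The numbers of KO and WT mice are the same in the labels but do not mark pairs: deviations of same-numbered mice correlated at 0.032 in AMPKα1 and -0.007 in AMPKα2. The fit with a replicate block called 77 genes and 519 APSs in AMPKα2, 0 genes of the interaction and 0 genes with changed site usage in AMPKα1, and the other counts stayed within 1.5 times.

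Some log2 fold changes of members changed sign. In AMPKα2, library totals gave -0.0498 for Ulk1 and -0.10 for Gabarapl1, the replicate block -0.0145 for Gabarapl1, own-strand APSs 0.0039 for Tsc2, and the strongest APS alone 0.0220 for Tsc2 and -0.10 for Bnip3. On leaving out 1 mouse, AMPKα1 log2 fold changes ranged from -0.0452 to 0.65 (Mtor), -0.27 to 0.66 (Tsc2) and -0.43 to 2.21 (Bnip3). AMPKα2 values ranged from -0.52 to 1.02 (Ulk1), -0.11 to 0.0599 (Tsc2), -0.53 to 0.37 (Gabarapl1) and -2.10 to 0.18 (Foxo3). Ranges without a change of sign were -1.38 to -0.18 (Sqstm1), -1.25 to -0.0323 (Gabarapl1) and -1.08 to -0.55 (Map1lc3b) in AMPKα1, and -1.45 to -0.41 (Rptor), -0.65 to -0.19 (Map1lc3b), -0.42 to -0.16 (Map1lc3a), 0.27 to 0.57 (Sqstm1) and 0.0187 to 0.29 (Bnip3) in AMPKα2. Differences between the models ranged from -0.47 to 0.20 (Mtor), -0.67 to 0.24 (Tsc2), -0.0419 to 0.67 (Map1lc3b), -0.12 to 1.28 (Gabarapl1), -2.15 to 0.60 (Bnip3) and -1.32 to 0.89 (Foxo3), and, without a change of sign, from 0.51 to 1.82 (Sqstm1), -1.03 to -0.0192 (Rptor) and 1.37 to 2.85 (Ulk1). Calls over all features then ranged from 29 to 89 genes and 0 to 76 APSs in AMPKα2, 0 to 170 APSs in AMPKα1 (170 without WT 2, 0 without any of the other mice), 0 to 542 genes of the interaction (542 without AMPKα1 KO 1 and 425 without KO 2), and 0 to 2 and 1 to 15 genes with changed site usage in AMPKα1 and AMPKα2.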
